A study of Mus musculus with 6 samples.

Results

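Molecular chaperones of the DNAJ, heat shock protein and CCT families were followed in whole spleens of female NOD mice, which become diabetic through autoimmunity without any induction. They were chosen by symbol: genes named Dnaj, genes named Hsp followed by a digit or a letter from a to e, the CCT subunits Cct2 to Cct8, and Tcp1. The deposited table held 150 such probes of 75 genes among 31692 probes. The scanner output of the same arrays held 16 more, below the table's limit on dim probes, of which 8 genes had no probe in the table. This gave 83 chaperone genes, of which the 75 in the table comprise 40 DNAJ, 26 heat shock and 9 CCT genes. All table probes of the members were well above background on all 6 arrays, so none entered through the group in which it was high.

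The MOTS-c group received the peptide MOTS-c, whose coding sequence lies in the mitochondrial genome, injected into the peritoneum daily at 0.5 mg/kg/day. The vehicle group received a scrambled MOTS-c peptide with no specific action, so both groups were injected with a peptide. Mice of both groups were 6 weeks old when obtained, had a week to settle, and were killed at 18 weeks of age after a fast of 16 to 18 h. Each group had 3 arrays of whole-spleen RNA, called here MOTS-c 1 to 3 and vehicle 1 to 3, and the title of the study concerns loss of pancreatic islets in autoimmune diabetes. Whether each array stands for another mouse is not given in the labels, and the p-values then cover just the spread among these 6 samples.

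Chaperones bind unfolded proteins and keep them from aggregating. HSP70 proteins bind and release clients in a cycle of ATP hydrolysis. DNAJ proteins deliver the clients and start that hydrolysis, and nucleotide exchange factors end the cycle. HSP90 finishes the folding of kinases and receptors, small heat shock proteins hold unfolded clients without ATP, and HSP60 with its lid HSP10 folds proteins inside mitochondria. CCT, also called TRiC, is a ring of different subunits in the cytosol that folds actin and tubulin with help from prefoldin. In lymphoid tissue, the ER chaperones are best known for folding antibody in plasma cells.

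Values are log2 of the processed signal, quantile normalized between arrays by the authors, and a difference is MOTS-c minus vehicle. A gene is given by its brightest probe, and levels of different probes are not compared. The arrays had 61.8% to 64.0% of spots well above background and 0 saturated spots, with signal at the 75th percentile from 678 to 925.5. Vehicle 1 and vehicle 2 were on slide 1, and vehicle 3 shared slide 2 with MOTS-c 1 to 3. Slide 2 alone therefore sets 3 MOTS-c arrays against 1 vehicle array. By the scan date of the file headers, slide 1 was scan 1 and slide 2 was scan 2, so slide and scan cannot be told apart. Of the markers that define lymphocytes, the main cells of the labelled tissue, 11 of 12 T cell and 12 of 12 B cell markers were in the table.

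The spleens of the groups differed in their cell type markers, which are given here beside the chaperone values. Erythroid markers averaged 13.01 to 13.24 on the MOTS-c arrays and 13.73 to 14.39 on the vehicle arrays, and 11 of 12 were lower with MOTS-c. The remaining one, Hbb-bt, held the top value of every array, where quantile normalization leaves no difference. Cell cycle markers averaged 12.56 to 12.95 with MOTS-c and 13.46 to 13.98 with vehicle, with 12 of 12 lower. T cell markers averaged 12.65 to 12.73 with MOTS-c and 10.63 to 12.18 with vehicle, with 11 of 11 higher. B cell markers averaged 12.38 to 12.59 with MOTS-c and 10.68 to 12.32 with vehicle, with 12 of 12 higher. Neutrophil markers averaged 11.91 to 13.89 with MOTS-c and 11.08 to 13.43 with vehicle, with 9 of 9 higher and the groups overlapping. The 4 pancreas markers in the table (Cela1, Cpa1, Prss2 and Gcg, while Pnlip, Ins1 and Ins2 were not in it) averaged 8.38 or less with MOTS-c, against 9.42, 7.48 and 11.46 on vehicle 1, 2 and 3. Their part in the chaperone values was not tested, and in whole-spleen RNA fewer cells of a type and less RNA per cell cannot be told apart.

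With MOTS-c, the chaperones as a whole stood close to where they were with vehicle, while single J-proteins and 1 small heat shock protein differed by up to 2.18-fold. No chaperone passed the test: 0 of 75 genes reached an adjusted p of 0.05 in limma, against 0 of 20902 genes of the table (0%), with a smallest adjusted p of 0.082 in both. At an unadjusted p under 0.05, 9 of 75 chaperone genes were lower, or 12.0%, against 13.1% of all genes. A further 4 were higher, or 5.33%, against 12.5% of all genes. The 3 MOTS-c arrays lay below all vehicle arrays for 10 chaperone genes, 13.3% against a background of 16.4%, and above them for 8, 10.7% against 18.3%. These shares were at or under those of all genes. By the values of the authors' deposited table, 10 of the 75 had a p-value under 0.05, and the smallest adjusted p of any probe was 0.370.

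The median difference was -0.0092 over the 75 chaperones, with 38 lower and 37 higher, and 0.043 over all genes. By family it was 0.016 for DNAJ, 0.060 for the heat shock proteins and -0.18 for CCT. Finer groups ranged from -0.33 in DNAJB, where 8 of 11 genes were lower, to 0.12 in HSP70, where 9 of 12 were higher, and 0.12 in HSP90, where 2 of 3 were higher. DNAJA, DNAJC and the small heat shock proteins lay between, at 0.077, 0.071 and 0.00060. Scaling each array by its 75th percentile instead turned the medians of DNAJ (-0.036), the heat shock proteins (-0.11), HSP90 (-0.10), DNAJC (-0.0058) and the small heat shock proteins (-0.026) below 0. On that scale the median of all genes was 0.0029 and that of all chaperones -0.16.

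**Figure D1:**
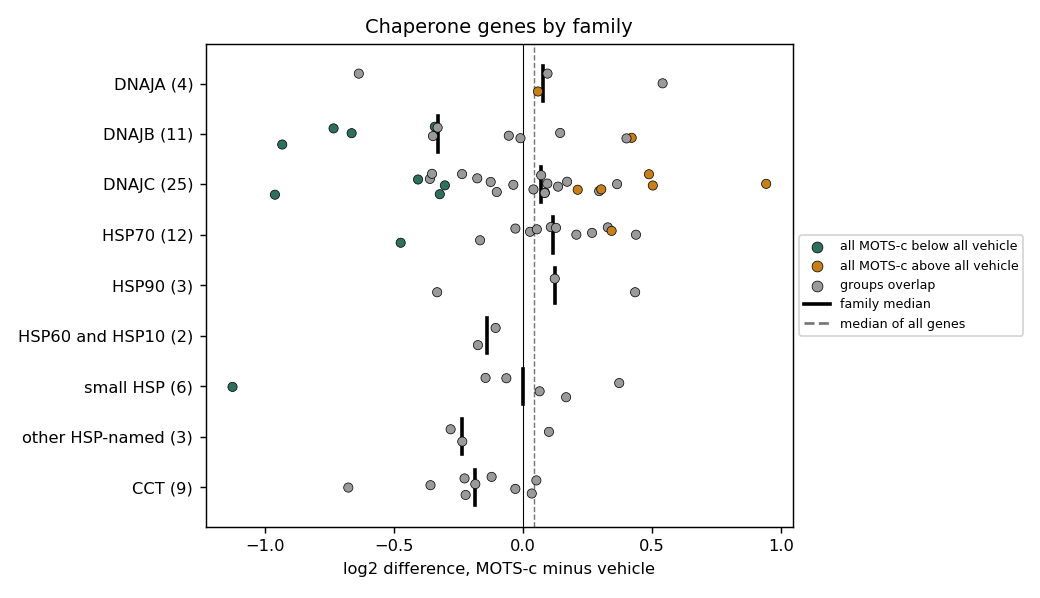
Each point is 1 chaperone gene, placed by its log2 difference, MOTS-c minus vehicle, in the row of its family, with the number of genes in brackets; colour shows whether the 3 MOTS-c arrays lay wholly below or above the 3 vehicle arrays. Black bars are family medians and the dashed line is the median of all genes, 0.043; DNAJB (-0.33) and CCT (-0.18) lie to its left, and Hspb6 and Dnajc7 are the outermost points on either side.

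Among J-proteins of type DNAJB, 3 of 11 were lower at an unadjusted p under 0.05, 27.3% against 13.1% of all genes, and 1 was higher, 9.09% against 12.5%. The brightest probe of Dnajb2, at chr1:75242040-75242099 on mm9, is shown with those of Dnajb4 and Dnajb3, because these are the DNAJB genes of the table with the widest gaps between groups. Only the first 30 of 60 bases are printed, in lower case.
Dnajb2: gaatggctttctttgacctctgaccttgct
Dnajb4: gaaaatactgttacttggcattaattgtcc
Dnajb3: tggtctttatgcctgttgtaaatatctgta

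Dnajb2 is a J-protein that binds ubiquitin and hands clients of HSP70 to the proteasome. It measured 12.16, 12.12 and 12.15 on the MOTS-c arrays, against 13.44, 12.76 and 13.04 on the vehicle arrays. The MOTS-c arrays were close to each other, with an SD of 0.022 against 0.35 for vehicle, and all lay below every vehicle array. The difference was -0.93 ± 0.19 (SE, n = 3 arrays per group; limma adjusted p = 0.082), and a second probe of the gene gave -0.64 ± 0.19. Adjusted p ranged from 0.0449 to 0.478 over 15 alternative settings, and the difference was below 0 in all of them.

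Dnajb4, a cytosolic J-protein, measured 11.54, 11.58 and 11.35 with MOTS-c, against 12.41, 11.79 and 12.24 with vehicle. The groups did not overlap, and vehicle 2 was the vehicle array nearest to MOTS-c. The difference was -0.66 ± 0.19 (limma adjusted p = 0.111). Its probe lies at chr3:151847247-151847306 on mm9, and all 6 probes of the gene were lower, from -1.39 to -0.20.

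Dnajb3, known in mouse as a J-protein of sperm cells, measured 9.22, 9.44 and 8.99 with MOTS-c, against 9.73, 9.78 and 10.33 with vehicle. Here vehicle 3 was the highest array, and again no MOTS-c array reached a vehicle array. The difference was -0.73 ± 0.21 (limma adjusted p = 0.112), from a probe at chr1:90101311-90101370 on mm9. Of 4 testis markers looked for with it (Prm1, Prm2, Tnp1 and Odf1), 0 were in the table, and they were not looked for among the dim probes.

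Dnajb12 is a J-protein of the ER membrane that takes part in the disposal of misfolded membrane proteins. It was the last of 4 DNAJB genes with every MOTS-c array below all vehicle arrays. That is 4 of 11 genes, 36.4%, against 16.4% of all genes. Its brightest probe measured 11.22, 11.25 and 11.35 with MOTS-c, against 11.84, 11.51 and 11.50 with vehicle. The difference was -0.34 ± 0.15 (limma adjusted p = 0.198). Other probes on the strand of the gene gave -0.96 ± 0.20 and -0.70 ± 0.18. A probe on the opposite strand, the only such probe among the members whose strand was known, gave 1.08 ± 0.30. The beginnings of the brightest probe and of the opposite-strand probe are shown because the values have opposite signs; they lie at chr10:59361954-59362013 and chr10:59356678-59356737 on mm9.
Dnajb12, strand of the gene: aacacagatcctaaaggatcccctgagaag
Dnajb12, opposite strand: ggctgggatgcagtctgtggcatggaactg

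Dnajb1, Dnajb6 and Dnajb5, also of the cytosol, differed by less than Dnajb2 and Dnajb4. Dnajb1, the heat-inducible partner of HSP70, measured 13.78, 14.47 and 13.98 with MOTS-c, against 14.10, 13.93 and 14.22 with vehicle, a difference of -0.0092 ± 0.20. Dnajb6, which keeps aggregation-prone proteins soluble, measured 12.77, 12.76 and 12.89 with MOTS-c, against 13.29, 12.79 and 13.32 with vehicle. MOTS-c 3 exceeded vehicle 2, so the groups overlapped, and the difference was -0.33 ± 0.18 (limma adjusted p = 0.272). Dnajb5, another cytosolic J-protein, was the DNAJB gene of the table with every MOTS-c array above all vehicle arrays, 1 of 11 or 9.09%, against 18.3% of all genes. It measured 10.02, 9.76 and 10.32 with MOTS-c, against 9.68, 9.61 and 9.55 with vehicle, and differed by 0.42 ± 0.17 (limma adjusted p = 0.181).

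DNAJA proteins are the J-proteins closest in build to bacterial DnaJ. Dnaja4 measured 12.78, 12.82 and 12.42 with MOTS-c, against 13.44, 12.75 and 13.73 with vehicle, and vehicle 2 lay among the MOTS-c arrays. Its difference was -0.64 ± 0.27 (limma adjusted p = 0.190), and another probe gave -1.05 ± 0.29. Dnaja1, a main partner of HSP70 in the cytosol, measured 13.84, 14.70 and 14.22 with MOTS-c, against 13.56, 13.56 and 14.03 with vehicle. MOTS-c 2 stood well above the other arrays, the groups overlapped, and the difference was 0.54 ± 0.25 (limma adjusted p = 0.221). Dnaja2 differed by 0.095 ± 0.13. Dnaja3, the J-protein of the mitochondrial matrix, had arrays that did not overlap but differed by only 0.059 ± 0.12, and by -0.00076 under 75th percentile scaling.

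The DNAJC genes, whose proteins share little beyond the J-domain and serve specialised tasks, lay on both sides, with 3 of 25 lower and 3 of 25 higher at an unadjusted p under 0.05. Both shares are 12.0%, near the 13.1% and 12.5% of all genes. Dnajc7 binds both HSP70 and HSP90 through its tetratricopeptide repeats. It measured 14.56, 14.62 and 14.75 with MOTS-c, against 13.36, 13.89 and 13.85 with vehicle. Every MOTS-c array was above every vehicle array, and vehicle 1 was the lowest. The difference was 0.94 ± 0.18, or 1.92-fold (limma adjusted p = 0.082, 0.0448 to 0.478 over 15 alternative settings). A second probe gave 0.58 ± 0.17. The brightest probe lies at chr11:100444161-100444220 on mm9 and begins as follows, given because it holds the highest difference among the chaperones of the table.
Dnajc7: gggtagacagggaagcaggcagcttgtgaa

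Dnajc6, or auxilin, calls HSP70 to strip clathrin from vesicles. It measured 7.86, 8.08 and 8.16 with MOTS-c, against 9.87, 8.53 and 8.58 with vehicle. The groups did not overlap, but vehicle 1 stood far above the other arrays, and on slide 2 alone the difference was -0.54 in place of -0.96 ± 0.36 (limma adjusted p = 0.158). Dnajc1, a J-protein of the ER membrane that works with BiP, measured 10.91, 10.92 and 10.99 with MOTS-c, against 10.14, 10.45 and 10.73 with vehicle. No MOTS-c array reached down to a vehicle array. It differed by 0.50 ± 0.17 (limma adjusted p = 0.143), 0.21 on slide 2 alone.

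Dnajc18, also of the ER membrane, measured 10.51, 10.53 and 10.56 with MOTS-c, against 9.92, 10.09 and 10.12 with vehicle. These were tight, separate groups, with a difference of 0.49 ± 0.13 (limma adjusted p = 0.0982). Another probe of Dnajc18 gave -0.048 ± 0.13, so the probes of the gene disagreed. Dnajc19, part of the motor that pulls proteins into mitochondria, measured 13.69, 13.64 and 13.42 with MOTS-c, against 14.08, 14.05 and 13.85 with vehicle. Its groups were separate and differed by -0.41 ± 0.14 (limma adjusted p = 0.148). A second probe gave -0.68 ± 0.16 and the other 0.80 ± 0.34.

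Other DNAJC genes with separate groups had smaller gaps. Dnajc9, a J-protein that handles histones, differed by -0.32 ± 0.12 with a second probe at -0.58 ± 0.15, and Dnajc8, which associates with splicing factors, by -0.30 ± 0.14 with 3 more probes from -0.58 to -0.45. Dnajc15, of the mitochondrial inner membrane, differed by 0.30 ± 0.15, and Dnajc13, which works on endosomes, by 0.21 ± 0.12. Their limma adjusted p lay between 0.164 and 0.306.

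**Figure D2:**
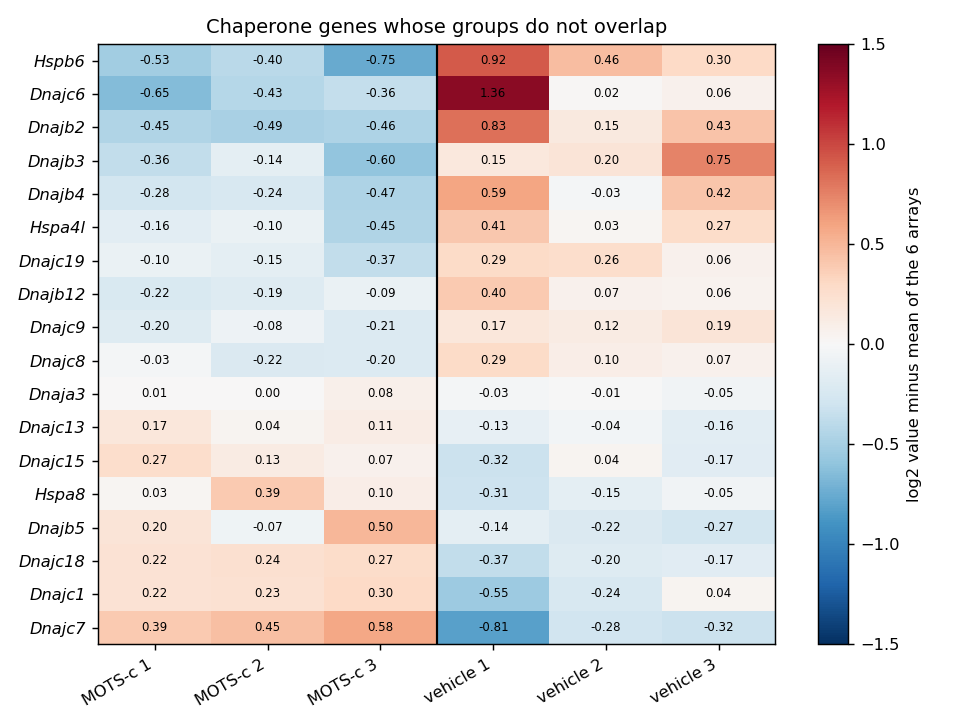
Rows are the 18 chaperone genes whose MOTS-c and vehicle arrays did not overlap, columns the 6 arrays, and each cell gives the log2 value minus the mean of that gene over the 6 arrays. The upper 10 rows are lower with MOTS-c, from Hspb6 (-1.12) down to Dnajc8 (-0.30), and the lower 8 are higher, ending with Dnajc7 (0.94); vehicle 1 is the most distant vehicle array in several rows.

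HSP70 genes tended to be measured slightly higher with MOTS-c, 9 of 12, but only Hspa8 had separate groups in that direction. Hspa8, the constitutive cytosolic HSP70, measured 14.98, 15.34 and 15.05 with MOTS-c, against 14.64, 14.80 and 14.90 with vehicle. MOTS-c 2 was the highest array. The difference was 0.34 ± 0.16 (limma adjusted p = 0.214), and all 4 of its probes were higher, from 0.34 to 0.48. It was 0.12 under 75th percentile scaling.

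The stress-inducible pair Hspa1a and Hspa1b are near-identical copies whose signals may not be separable, so their values are uncertain as single genes. Hspa1a measured 7.52, 8.92 and 8.75 with MOTS-c, against 8.72, 7.83 and 7.65 with vehicle. Hspa1b measured 7.48, 8.64 and 8.55 with MOTS-c, against 8.16, 7.44 and 7.76 with vehicle. In both, MOTS-c 1 was low and vehicle 1 high within its group, and the groups overlapped. Hspa1a differed by 0.33 ± 0.43, with SDs of 0.76 for MOTS-c and 0.57 for vehicle, and Hspa1b by 0.44 ± 0.34, with SDs of 0.64 for MOTS-c and 0.36 for vehicle. Hspa4l, of the HSP110 branch whose members exchange nucleotide on HSP70, lay the other way. It measured 10.74, 10.80 and 10.45 with MOTS-c, against 11.31, 10.93 and 11.17 with vehicle, without overlap. It differed by -0.47 ± 0.16 (limma adjusted p = 0.144), and its 4 probes ranged from -0.61 to -0.28.

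Hspa5 (BiP), the HSP70 of the ER, measured 15.29, 15.18 and 14.98 with MOTS-c, against 14.91, 15.03 and 15.12 with vehicle, and the groups overlapped. Its difference was 0.13 ± 0.14, and -0.13 under 75th percentile scaling. Hspa9, the HSP70 of mitochondria, measured 12.74, 12.79 and 12.78 with MOTS-c, against 13.04, 12.90 and 12.46 with vehicle, a difference of -0.029 ± 0.18. Vehicle arrays lay on both sides of the MOTS-c arrays. MOTS-c 2 was the highest MOTS-c array for 8 of 12 HSP70 genes and for 35 of 75 chaperones, 46.7%, against 33.7% of all genes. It was also the highest MOTS-c array for 9 of 9 neutrophil and 12 of 12 cell cycle markers, and their part was not tested.

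The HSP90 genes had differences of both signs. Cytosolic Hsp90aa1, the inducible form, measured 13.77, 14.20 and 13.85 with MOTS-c, against 14.25, 14.47 and 14.10 with vehicle, a difference of -0.33 ± 0.17 (limma adjusted p = 0.262). Constitutive Hsp90ab1 measured 15.49, 15.73 and 15.65 with MOTS-c, against 15.53, 15.79 and 15.18 with vehicle. Its difference was 0.12 ± 0.18, and -0.10 under 75th percentile scaling. Hsp90b1 (GRP94), the HSP90 of the ER, measured 15.26, 15.20 and 15.16 with MOTS-c, against 14.24, 15.16 and 14.91 with vehicle. Vehicle 1 alone stood far below. The difference was 0.43 ± 0.24 (limma adjusted p = 0.280), and 0.17 without vehicle 1.

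Of the small heat shock proteins, Hspb6 (HSP20), which is best known in muscle, had the widest negative difference of any chaperone in the table, while the other 5 lay between -0.14 and 0.37. Hspb6 measured 8.94, 9.07 and 8.72 with MOTS-c, against 10.39, 9.93 and 9.77 with vehicle. The groups were separate, with vehicle 1 the highest array. The difference was -1.12 ± 0.20, or 2.18-fold (limma adjusted p = 0.082, 0.0449 to 0.478 over 15 alternative settings). A second probe gave -0.95 ± 0.23, and the value on slide 2 alone was -0.86. Hspb1 (HSP27 in human), the widespread member, measured 12.85, 12.34 and 12.87 with MOTS-c, against 13.11, 12.88 and 12.25 with vehicle, a difference of -0.064 ± 0.26. The probe of Hspb6 at chr7:31340398-31340457 on mm9 begins as follows, given as the member with the smallest p in the table.
Hspb6: acatttcccatctccgcaggccttcctacc

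The cytosolic chaperonin genes were slightly lower in median with MOTS-c, and the vehicle arrays stood apart from each other. Of its 9 genes 7 were lower with MOTS-c, and none had separate groups or an unadjusted p under 0.05. Tcp1, the founding subunit, measured 12.56, 12.69 and 12.48 with MOTS-c, against 13.14, 13.05 and 12.62 with vehicle, a difference of -0.36 ± 0.17 (limma adjusted p = 0.238). MOTS-c 2 lay above vehicle 3. Cct6b, the subunit used mainly in testis, measured 6.75, 6.28 and 6.49 with MOTS-c, against 7.47, 7.61 and 6.47 with vehicle. Its difference of -0.68 ± 0.31 (limma adjusted p = 0.219) was 0.038 on slide 2 alone.

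The remaining CCT subunits, which sit side by side in the same ring, had differences from -0.23 to 0.052. Cct7 measured 13.45, 13.54 and 13.34 with MOTS-c, against 13.91, 13.86 and 13.25 with vehicle, a difference of -0.23 ± 0.20. Cct6a measured 13.90, 13.94 and 13.72 with MOTS-c, against 14.11, 14.25 and 13.86 with vehicle, a difference of -0.22 ± 0.15. In both, vehicle 3 was below the other vehicle arrays, and lower than at least 1 MOTS-c array. Cct3 differed by -0.18 ± 0.20, Cct5 by -0.12 ± 0.14 and Cct8 by -0.029 ± 0.15. Cct2 and Cct4 were the 2 with a positive difference, at 0.035 ± 0.15 and 0.052 ± 0.12, which became -0.22 and -0.18 under 75th percentile scaling. On that scale 9 of 9 CCT genes were lower, with a median of -0.35, where all genes of the table with a level in the middle of the CCT range had a median of -0.16.

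Vehicle 3 was the lowest vehicle array for 9 of 9 CCT genes, against 30.1% of all genes. The median deviation of the CCT genes from their mean over the 6 arrays was -0.077, -0.021 and -0.15 on the MOTS-c arrays, against 0.15, 0.28 and -0.20 on the vehicle arrays. The median CCT difference was -0.090 without vehicle 1, -0.084 without vehicle 2 and -0.33 without vehicle 3. On slide 2 alone, where vehicle 3 is the vehicle array, it was 0.098, with 7 of 9 genes higher. Vehicle 1 and vehicle 2 are the arrays of slide 1. A part of slide or scan in the CCT values therefore cannot be told apart from a difference between arrays. Vehicle 3 also had the highest pancreas markers, and their part in the CCT values was not tested.

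**Figure D3:**
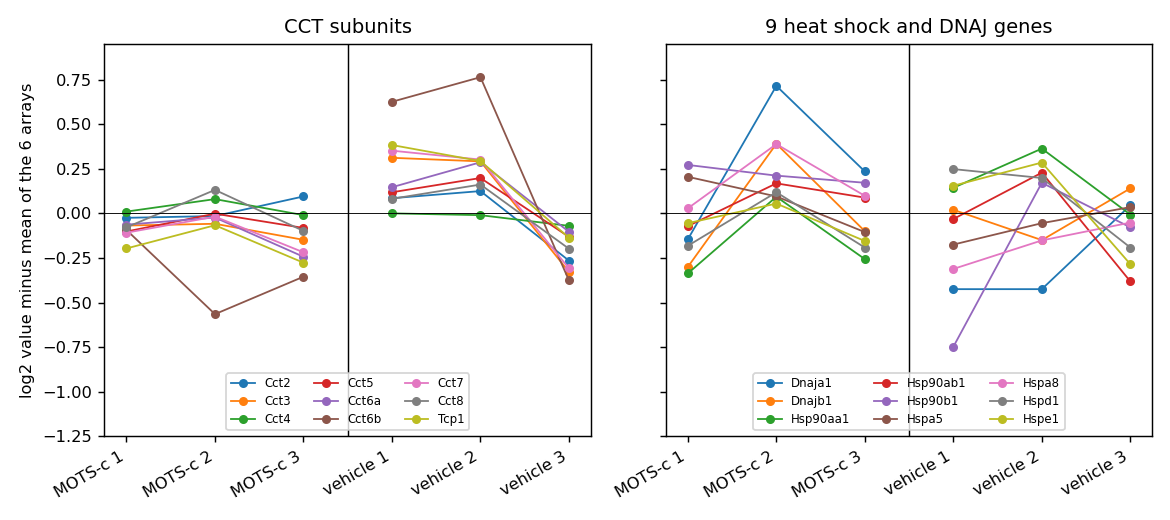
Log2 values minus the mean of each gene over the 6 arrays, for the 9 CCT genes (left) and 9 heat shock and DNAJ genes (right), with MOTS-c arrays left of vehicle arrays; lines only join values of 1 gene. CCT genes are high on vehicle 1 and 2 (median 0.15 and 0.28) and low on vehicle 3 (-0.20), with the MOTS-c arrays between. Vehicle 1 and 2 are on slide 1 and the other arrays on slide 2. At right, Dnaja1 peaks on MOTS-c 2 and Hsp90b1 is lowest on vehicle 1.

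Hspd1 (HSP60) and Hspe1 (HSP10), which form the mitochondrial chaperonin and lie head to head on chromosome 1, followed the same arrays. Hspd1 measured 13.66, 13.96 and 13.65 with MOTS-c, against 14.09, 14.04 and 13.65 with vehicle. Hspe1 measured 14.88, 14.99 and 14.78 with MOTS-c, against 15.09, 15.22 and 14.65 with vehicle. Vehicle 3 was the lowest vehicle array in both, and the differences were -0.17 ± 0.17 and -0.11 ± 0.18. On slide 2 alone they were 0.10 and 0.24.

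By compartment, the ER chaperones were the ones with the most positive median. Of 13 ER genes 9 were higher with MOTS-c, with a median of 0.14. Dnajc1 and Dnajc18 were higher at an unadjusted p under 0.05 in limma, 2 of 13 or 15.4%, near the 12.5% of all genes. Dnajb9 (ERdj4), which acts in the disposal of misfolded ER proteins, measured 10.83, 10.84 and 10.71 with MOTS-c, against 10.27, 10.11 and 10.80 with vehicle. It differed by 0.40 ± 0.20 (limma adjusted p = 0.242), and by -0.0069 on slide 2 alone. The ER J-proteins Dnajb11 and Dnajc3 differed by -0.054 ± 0.13 and 0.17 ± 0.14. Vehicle 1 was the lowest vehicle array for 8 of 13 ER genes, against 37.8% of all genes, and the median ER difference was 0.016 on slide 2 alone. Plasma cell markers, whose cells have much ER, averaged 11.43 to 11.77 with MOTS-c and 11.12 to 11.70 with vehicle. Vehicle 1 was also the lowest vehicle array for 11 of 11 T cell and 12 of 12 B cell markers, with median deviations of -1.52 and -1.29. The part of these markers in the ER values was not tested.

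The 39 chaperones of cytosol and nucleus had a median of -0.10, with 23 lower, and -0.037 without the CCT genes. The 8 mitochondrial ones had a median of -0.067, with 5 lower. On slide 2 alone both signs turned, to 0.075 and 0.096, and vehicle 3 was the lowest vehicle array for 22 of the 39 and for 6 of the 8. The 15 genes of other or unassigned place had a median of 0.071. So the order ER, then mitochondrion, then cytosol over 6 arrays did not hold on slide 2, where the ER median was the lowest of these compartments.

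**Figure D4:**
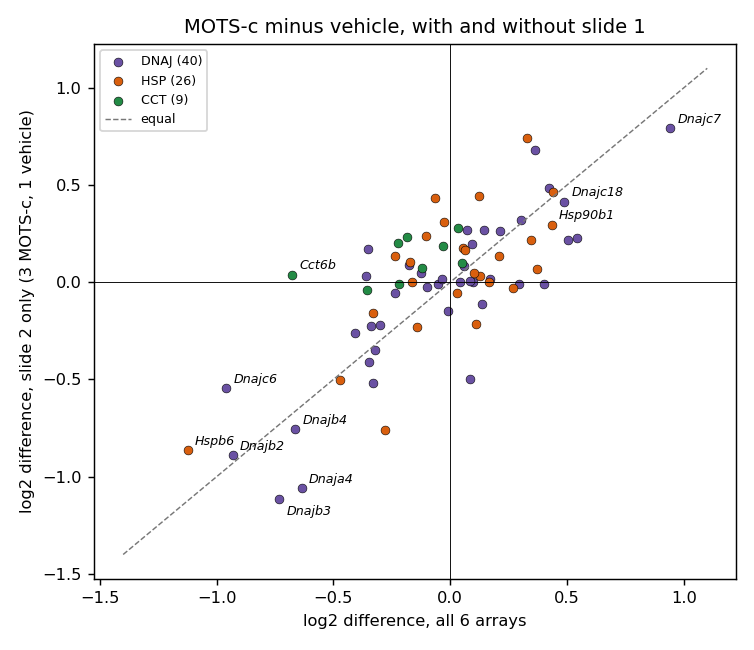
Each point is 1 chaperone gene, with its log2 difference (MOTS-c minus vehicle) over all 6 arrays on the x axis and on slide 2 alone, 3 MOTS-c arrays against vehicle 3, on the y axis; the dashed line marks equal values. Hspb6, Dnajb2, Dnajb3, Dnajb4 and Dnaja4 lie far below 0 and Dnajc7 far above it on both axes. Cct6b (-0.68 on x) lies at 0.038 on y. Genes with separate groups cannot change sign between the axes.

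Of the 75 chaperones, 22 had another sign on slide 2 than over all arrays, and 30 were lower there against 38 over all. Some single genes had wide gaps over all arrays. On slide 2 alone Dnajb2 differed by -0.89, Dnajb3 by -1.11, Dnajb4 by -0.76, Dnaja4 by -1.06 and Dnajc7 by 0.79. The groups of Dnajb2, Dnajb3, Dnajb4 and Dnajc7 were separate, so their sign could not change on slide 2, only their size. The erythroid markers had a median difference of -1.09 over all arrays and -1.22 on slide 2, and the cell cycle markers of -0.99 and -0.93. Other lists did not keep their size: T cell markers had a median difference of 1.05 over all arrays and 0.51 on slide 2, B cell markers 0.85 and 0.67, and neutrophil markers 0.86 and -0.084. The part of the erythroid and cell cycle markers in the values of Hspb6 and the lower J-proteins was not tested.

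Genes that work with the chaperones were read from a list of 63, all in the table. None passed the adjusted threshold in limma; 24 were lower and 39 higher, with a median of 0.12. At an unadjusted p under 0.05, 8 were lower and 9 higher, 12.7% and 14.3%, near the 13.1% and 12.5% of all genes. Hsf1, Hsf2 and Hsf4, which encode heat shock factors, and Hsbp1, whose protein binds and restrains heat shock factor 1, had positive differences, with a median of 0.24 over the 4 genes. Hsf1, the main heat-responsive factor, measured 10.74, 10.68 and 10.98 with MOTS-c, against 10.35, 10.60 and 10.31 with vehicle, a difference of 0.38 ± 0.15 (limma adjusted p = 0.175). Hsf2, which acts also in development, differed by 0.26 ± 0.13.

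Nucleotide exchange factors had a median of -0.021 over 11 genes. Bag2, which releases HSP70 clients and restrains the ubiquitin ligase CHIP, had the largest gap of the 63. It measured 8.16, 8.58 and 8.18 with MOTS-c, against 10.13, 9.34 and 9.34 with vehicle, with separate groups. It differed by -1.30 ± 0.25 (limma adjusted p = 0.082). Hyou1, the exchange factor of the ER, differed by 0.61 ± 0.23 over all arrays and 0.19 on slide 2.

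Partners of HSP90 were higher in 12 of 16, median 0.12, among them Unc45a, a myosin chaperone, at 0.72 ± 0.22 and Chordc1 at 0.80 ± 0.27. On slide 2 alone Unc45a stood at 0.67 and Chordc1, whose groups overlapped, at 0.20. Prefoldin and CCT partners had a median of -0.18 over 8 genes, with 5 lower and 3 higher. The prefoldin subunits Pfdn1 and Vbp1 stood at -0.41 ± 0.16 each, while Pfdn5, the highest of the 8, stood at 0.37 ± 0.16. On slide 2 alone the median was -0.065, with 4 lower and 4 higher. On slide 2 Vbp1 stood at -0.57 and Pfdn1 at -0.20.

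ER folding genes were higher in 13 of 15, with a median of 0.25, and 3, or 20.0%, were higher at an unadjusted p under 0.05, against 12.5% of all genes. Pdia4, a disulfide isomerase, measured 10.93, 10.82 and 10.90 with MOTS-c, against 9.57, 10.47 and 10.40 with vehicle. It differed by 0.74 ± 0.25 (limma adjusted p = 0.139), and Sel1l, of the ER disposal complex, by 0.38 ± 0.15. Vehicle 1 was again the low array, with a median deviation of -0.51 over the 15 genes. On slide 2 alone the median was 0.17, with 12 of 15 higher.

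Mitochondrial quality control genes were lower in 7 of 9, with a median of -0.29. On slide 2 alone the median was -0.066, again with 7 of 9 lower. Afg3l2, a subunit of a protease of the inner membrane, measured 11.04, 11.16 and 11.18 with MOTS-c, against 12.45, 11.71 and 11.76 with vehicle. It differed by -0.85 ± 0.22 (limma adjusted p = 0.0969). Hscb, a J-protein of iron-sulfur cluster assembly, measured 13.49, 13.23 and 13.10 with MOTS-c, against 14.12, 13.58 and 14.18 with vehicle, a difference of -0.69 ± 0.20 (limma adjusted p = 0.117). On slide 2 alone Afg3l2 stood at -0.63 and Hscb at -0.90. The array with the lowest Hscb among vehicle arrays, vehicle 2, also had the lowest erythroid markers of that group, 13.73. The part of these markers was not tested.

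Promoters were read because heat shock factor and the unfolded protein response act through known elements. RefSeq windows on GRCm38.p6, from 250 bases before a gene's start to 50 after it, were found for 62 of the 75 genes, and for 86 starts with the dim members included. Searched on both strands, the heat shock element of 3 units (GAANNTTC followed at once by NNGAA) was found in 4 of 86 windows, 4.65%, against 0.603% of 32851 windows of all genes. These windows belong to Hspd1, Hspe1 and Dnajb6. Dnajb6 has 2 of them, from different starts, and both hold the same element. Counted by gene, the element was found in 3 of 68 chaperone genes, against 179 of 27025 genes with a window. The shorter form GAANNTTC, contained in it, was in 18.6% against 7.86%, and TTCNNGAA, also contained in it, in 9.30% against 8.52%. The ER stress element (CCAAT, then 9 bases of any kind, then CCACG) was in 3 of 86, 3.49%, against 0.119%, in Hspa5, Hsp90b1 and Dnajc3.

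For each gene listed, 1 match is shown in a window of 30 bases before the start, with the element in capitals, as read on the strand of the gene. Hspd1 and Hspe1 share their promoter on chromosome 1, and their windows, at chr1:55088050-55088079 on the minus strand and chr1:55088056-55088085 on the plus strand, overlap on opposite strands. The elements marked in them overlap too, without being the same bases. Each of these windows also holds, on its other strand, the element marked in the other window. The windows of Dnajb6 and Hspa1b lie at chr5:29735844-29735873 on the plus strand and chr17:34959324-34959353 on the minus strand, and that of Hspa1b holds only the shorter form.
Hspd1: gccttccgGAAGGTTCTAGAAcggaccgtg
Hspe1: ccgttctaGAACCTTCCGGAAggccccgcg
Dnajb6: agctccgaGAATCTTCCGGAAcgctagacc
Hspa1b: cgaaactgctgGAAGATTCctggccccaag
Hspd1, Hspe1 and Dnajb6, which hold the longer element, differed by -0.17, -0.11 and -0.33, none past the test, and on slide 2 alone by 0.10, 0.24 and -0.52.

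The ER stress element windows lie at chr2:34772020-34772049 on the plus strand for Hspa5, chr10:86705632-86705661 on the minus strand for Hsp90b1 and chr14:118937822-118937851 on the plus strand for Dnajc3. Hsp90b1 has another match, not shown, on the strand opposite to the gene, in the window chr10:86705527-86705556.
Hspa5: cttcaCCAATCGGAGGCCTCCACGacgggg
Hsp90b1: caagcCCAATCGCAAGGAGCCACGcttcgg
Dnajc3: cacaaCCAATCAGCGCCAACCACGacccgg
These 3 genes differed by 0.13, 0.43 and 0.17, all positive and none past the test, and under 75th percentile scaling Hspa5 turned to -0.13. The 250 bases before the start of Hspa5, at chr2:34771840-34772089 on the plus strand, are given as the promoter of the best known target, with the element in capitals.
Hspa5 promoter: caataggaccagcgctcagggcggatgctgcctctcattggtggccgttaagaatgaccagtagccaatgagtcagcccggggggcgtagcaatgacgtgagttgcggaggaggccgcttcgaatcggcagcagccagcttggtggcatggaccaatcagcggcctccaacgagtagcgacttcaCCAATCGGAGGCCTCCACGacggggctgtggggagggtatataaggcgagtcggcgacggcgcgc
A match is a description of letters, not of binding.

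Of the 43 chaperone genes with more than 1 probe, 13 had probes of both signs, and 12 had without the opposite-strand probe of Dnajb12. In 6 of the 13 (Cct4, Dnajc10, Dnajc2, Hspa4, Hspa5 and Hspb7) every probe lay between -0.13 and 0.18. The others were Dnajb12, Dnajc19 and Dnajc18, given above, with Dnajc11, Dnajb6, Dnajc16 and Dnajc5. Those of Dnajb6, Dnajc16 and Dnajc5 reached down to -0.50, -0.42 and -0.35 and up to 0.070, 0.11 and 0.098. Dnajc11, linked to the inner membrane of mitochondria, gave 0.14 ± 0.15 by its brightest probe and -0.58 ± 0.20 by the other. The probes of Dnajb4, Dnajc8, Hspa4l, Hspa8 and Cct3 all had 1 sign.

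**Figure D5:**
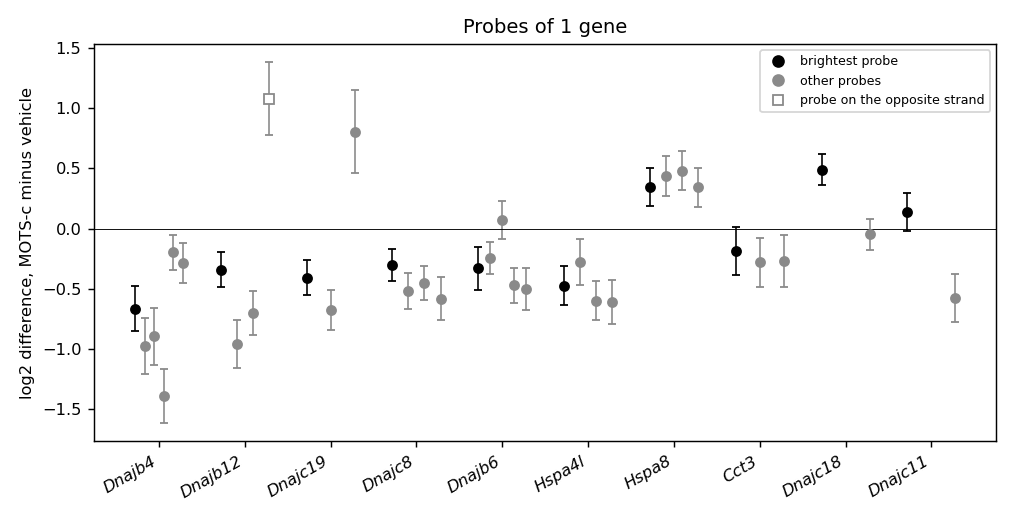
Log2 difference, MOTS-c minus vehicle, of every table probe of 10 chaperone genes, with the standard error from limma as bars; black marks the brightest probe and the open square the probe on the opposite strand. All 6 probes of Dnajb4 lie below 0 and all 4 of Hspa8 above it, while Dnajb12 and Dnajc19 have a probe at 1.08 and 0.80 above negative ones.

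Outside the table, 16 chaperone probes were read from the scanner output as log2 of the signal relative to the 75th percentile of the array. Dnajb8, a J-protein of testis that suppresses aggregation of polyglutamine proteins, measured -5.10, -4.67 and -3.59 with MOTS-c, against -6.94, -6.65 and -7.14 with vehicle. It was well above background on 3 of 3 MOTS-c arrays and not well above background on any vehicle array. Set against the lowest signal well above background on each vehicle array, or its own where that was higher, it was at least 2.13-fold higher with MOTS-c. No test is given for it, since it met the limit of 3 arrays above background in the MOTS-c group alone. The share of all probes outside the table with this pattern, or with its reverse, is not given here. The other 7 genes without a table probe, Cct8l1, Dnajb7, Dnajc22, Dnajc5b, Dnajc5g, Hspa1l and Hspb3, were above background on 2 or fewer arrays of either group. A dim probe of Dnaja1 was above background on 3 MOTS-c and 2 vehicle arrays and differed by 1.25, given without a test for the same reason. The signal not well above background was used as measured, so the size is uncertain. A dim probe of Dnajc27, above background on 3 MOTS-c and 2 vehicle arrays, differed by 0.67. One of Dnajb5, above background on 2 MOTS-c and 3 vehicle arrays, differed by 0.32. Neither is given with a test. The remaining dim probes, of Dnaja3, Dnajb11, Dnajc6, Hspb11 and again Dnajc27, had at most 2 arrays above background in either group.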

How the data were processed

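Spleen RNA on 1-colour Agilent arrays was read with Agilent Feature Extraction 11.0.1.1, per the submitters' processing notes, which gave background-subtracted intensities per spot, per the file headers. The deposited table holds log2 values of these signals for 31692 probes; the values show quantile normalization between arrays. It also gives the authors' signed fold as a score and p-values from a test not given in the sources used here. Its signals equalled the scanner's for 100% of probes on each array (relative tolerance 0.0001). These log2 values were the main values, not scanner signals scaled by the 75th percentile. limma 3.58.1 in R 4.3.3 (lmFit, eBayes, two-sided) was fitted to all 31692 probes, with p-values adjusted over them by Benjamini-Hochberg and calls at 0.05; each gene is counted by its brightest probe, and unnamed probes count singly, 20902 in all. Dim probes were named through accessions of the array (11945 of 24913). On simulated data of 31692 probes, 24 of 100 changes of log2 1 and 78 of 100 of log2 2 were called, with 7 false calls.

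The members, lists and tests were chosen with earlier results of these data known. Named genes are the CCT genes, a fixed panel, up to 6 members with the largest difference in each direction at an unadjusted p under 0.05, and 2 related genes per list; the other genes named were chosen after their values were seen. Titles set the groups, and the descriptions number the arrays vehicle 3 and MOTS-c 3 differently. The smallest p of an exact permutation test of 3 and 3 arrays is 0.1. Normexp used median signals. Gene strands and promoters are from RefSeq on GRCm38.p6, and probe coordinates are those of the table on mm9; the place of a probe within a transcript was not determined. The number of arrays limits the precision.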

Additional observations from a re-analysis of the deposited data

Results flagged for a closer look

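Dnajb8, whose probe is not among those of the deposited table, gave a higher signal in the MOTS-c spleens than in the vehicle spleens, by at least 2.13-fold. It was well above background on 3 of 3 MOTS-c arrays and 0 of 3 vehicle arrays. No test is given, since it met the limit on dim probes in the MOTS-c group alone. The share of all probes outside the table with this pattern, or with its reverse, is not given here. The 4 testis markers looked for beside it were not in the table, and neither was Dnajb8. They were not looked for among the dim probes, so their absence cannot tell whether they had a signal like that of Dnajb8.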

How the results depend on the processing

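Across 15 alternatives, 110 of 135 values for 9 results stayed within the spread between arrays or the same count, and 13 alternatives called 0 chaperone genes. A trend of the variance on the level and a block for the replicate number cannot change a median difference. Slide as a block gives the same differences as slide 2 alone. The count of 110 therefore includes values that could not move and values counted under both slide settings. The variance trend called 3 of the 75 chaperone genes (Hspb6 and Dnajb2 lower, Dnajc7 higher), beside 721 calls over the whole table. Leaving out single arrays called 0 to 1, the call being Dnajb2 without vehicle 2, beside 772 calls over the whole table. Without vehicle 3 there were 39 calls over the whole table and 0 among the chaperones. Under 75th percentile scaling with the same probes, with probes above background in at least 1 group and with no filter, the median differences were -0.16, -0.14 and -0.16 for all chaperones, -0.036, -0.035 and -0.036 for DNAJ, -0.11 in each for heat shock proteins and -0.25 in each for cytosol and nucleus. The mean of all probes of a gene gave -0.062 for all chaperones and -0.061 for DNAJ. With slide as a block, as on slide 2 alone, medians were 0.098 for CCT, 0.075 for cytosol and nucleus, 0.016 for ER and 0.096 for mitochondrion. The cause of these moves was not tested. Leaving out single arrays gave -0.040 to 0.020 for all chaperones, -0.0075 to 0.039 for DNAJ, 0.0038 to 0.070 for heat shock proteins, -0.33 to -0.084 for CCT, -0.15 to -0.047 for cytosol and nucleus, 0.10 to 0.21 for ER, -0.24 to 0.017 for mitochondrion (the lowest without vehicle 3) and 0.045 to 0.15 for related genes. Same-numbered arrays did not deviate together (correlations -0.176, -0.0024 and -0.0871), so the numbers were not taken as pairs. The replicate block called 0. It left each median as it was (-0.0092 for all chaperones), as it must when each number has an array of both groups. Of 39 named chaperones in the table, 22 kept their sign under all alternatives. Where the groups were separate, leaving out arrays could not change the sign. Normexp was run on median signals.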
